A study of Mus musculus with 4 samples.

Results

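The 10 genes described here are markers of pericytes and fibroblasts, the cells that wrap small vessels and form the meninges of the embryonic brain: Dcn, Lum, Postn, Pdgfra, Pdgfrb, Rgs5, Acta2, Tagln, Fn1 and Sparc. They were chosen by name, as mural cell and meningeal fibroblast genes other than collagens. All 10 had at least 1 spot with a value on every array, among 11791 genes for which that held. The list was made with earlier results of these data known, in which Dcn and Postn had already been seen, so their place at the top of it is a description.

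RNA of the telencephalon, from which the cerebral hemispheres grow, was compared between 152F7 embryos and wild-type embryos, all at E12.5, the labels' term for the embryonic day, and on the FVB background. The 152F7 mice are 1 transgenic line, made with a yeast artificial chromosome that holds part of the human Down syndrome region, DYRK1A included, under its own human promoters. Per the series text each genotype was 1 series of pooled samples, and the sources used here give neither the number nor the sex of the embryos in a pool. Both pools were hybridised together on 4 two-colour arrays of 60-base probes, 2 with 152F7 in Cy5 and wild type in Cy3, and 2 with wild type in Cy5 and 152F7 in Cy3.

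Each value is the deposited log ratio of an array's 2 channels, read here as log2, since the base is not stated. The ratios were taken to run the same way on all 4 arrays. Over 4352 genes with at least 2 spots, Xist left out, the means of the first and the second spot correlated at 0.421 across genes in the values as deposited and at 0.0973 after the sign was changed wherever wild type was in Cy5. Which genotype is on top of the ratio stayed unsettled, so a positive value means higher in the numerator pool, which is either 152F7 or wild type. With 1 pool per genotype no test between genotypes was possible. The SD is over 4 technical arrays and leaves out the spread between embryos. Over spots with a gene symbol, arrays of the same orientation correlated at 0.648 with 152F7 in Cy5 and 0.726 with wild type in Cy5, while pairs of unlike orientation gave 0.0367 to 0.116 (Pearson's r over spots, which share the same pools).

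The arrays held a value for 23796 to 28942 of 44290 spots, and 15 of the 22 spots of the 10 genes had a value on all 4. Intensities were not used here, so neither the level of a gene nor its signal over background is known, and with 4 arrays the precision is limited. The labelled tissue could be checked only for the presence of values: all 15 telencephalic markers on the platform, such as Emx2 and Tbr1, had values on all 4 arrays. So did 14 of 16 lens genes and 11 of 12 endothelial genes on the platform, and 55.4% of all spots with 1 symbol. The presence of values therefore cannot tell the telencephalon from other tissue. The pools also differed in a marker of sex, with Xist at -3.38 ± 0.11. In RNA from whole tissue, more cells of a type and more RNA per cell cannot be told apart.

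Pericytes are mural cells that share the basement membrane of capillaries with the endothelium. They are drawn to new vessels by platelet-derived growth factor B from endothelial cells, which acts on the receptor encoded by Pdgfrb, and they stabilise the vessel wall. Fibroblasts of the meninges express Pdgfra and build a matrix of collagens, fibronectin and small leucine-rich proteoglycans around the brain, and signals from the meninges reach the cortical neuroepithelium below. At this stage vessels are growing into the telencephalon from the plexus on its surface.

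Of the 10 genes, Dcn, Postn and Sparc were at least 1.1-fold higher in the numerator pool with values above 0 on all 4 arrays, and 0 were lower by the same rule. Over all 11791 genes 3.42% were higher and 1.45% lower by that rule. Pdgfrb and Rgs5 also had values above 0 on all 4 arrays without reaching 1.1-fold, which makes 5 of 10, against 12.8% of all genes. Below 0 on all 4 arrays were 0 of the 10 and 9.86% of all genes. None of the 10 reached 1.5-fold, which 0.0763% of all genes did in the higher and 0.00848% in the lower direction. The median of the 10 means was 0.094 ± 0.025 (SD of the medians on the 4 arrays), against 0.0021 for all genes. Dcn and Postn had already been seen when the list was made, so these counts and this median are a description.

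**Figure D1:**
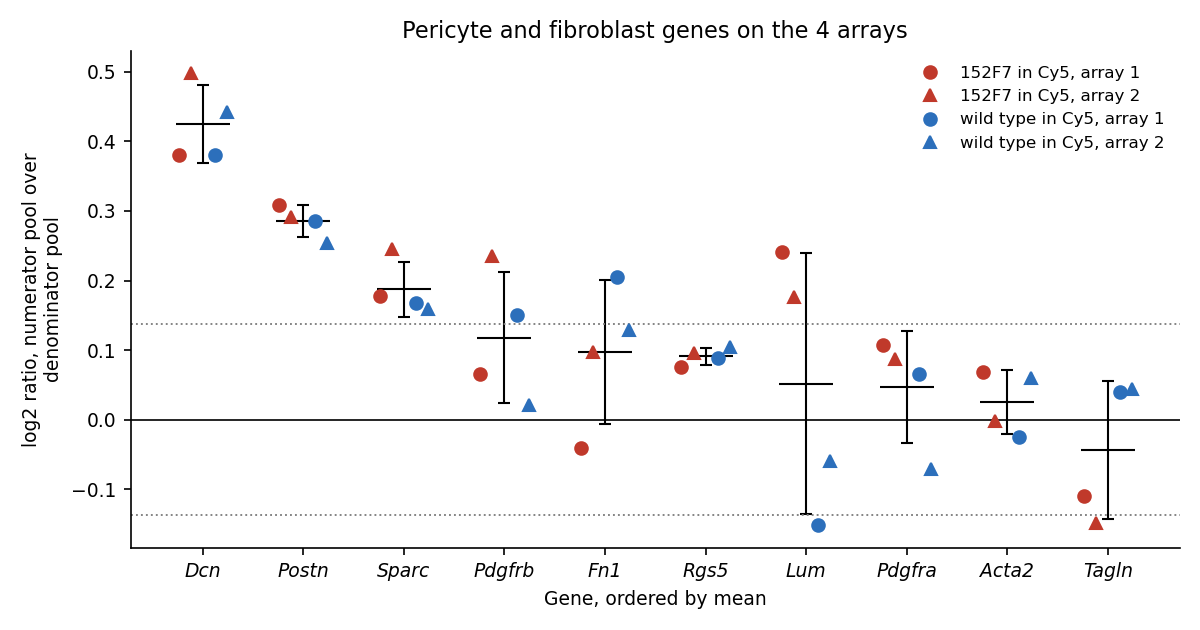
Log2 ratio of the numerator to the denominator pool (vertical axis) for each gene (horizontal axis, ordered by mean). Points are the 4 arrays, red for 152F7 in Cy5 and blue for wild type in Cy5, bars are the mean and SD over the arrays, and dotted lines mark 1.1-fold. Dcn, Postn and Sparc lie above the upper dotted line on every array, while Lum and Tagln split by dye orientation.

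Promoter windows of 5 of the 10 genes were looked at. Those of Postn, Sparc and Rgs5 are shown because these genes had values above 0 on all 4 arrays, and that of Acta2 because its values lay on both sides of 0. Dcn and Pdgfrb were above 0 on all 4 arrays too, but windows of these genes were not among the 5. Pdgfra also had values on both sides of 0, and its window is not printed. The windows are from RefSeq (GRCm38.p6), run from 250 bases before to 50 bases after an annotated start, and are written 5′ to 3′ on the gene's strand. For Postn the downstream of 2 annotated starts is printed. Capitals mark TATATA, the core of many TATA boxes, and near-matches of the CArG box, the binding motif of serum response factor, that differ from it at 1 base of its A/T core. Both motifs read the same on both strands, and no match overlapped another.
Postn (chr3:54360857-54361156, plus strand): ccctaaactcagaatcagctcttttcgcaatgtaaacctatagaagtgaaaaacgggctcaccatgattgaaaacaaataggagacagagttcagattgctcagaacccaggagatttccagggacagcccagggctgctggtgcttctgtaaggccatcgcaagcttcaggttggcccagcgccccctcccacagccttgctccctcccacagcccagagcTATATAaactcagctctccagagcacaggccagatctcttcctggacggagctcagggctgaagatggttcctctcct
Sparc (chr11:55420031-55420330, minus strand): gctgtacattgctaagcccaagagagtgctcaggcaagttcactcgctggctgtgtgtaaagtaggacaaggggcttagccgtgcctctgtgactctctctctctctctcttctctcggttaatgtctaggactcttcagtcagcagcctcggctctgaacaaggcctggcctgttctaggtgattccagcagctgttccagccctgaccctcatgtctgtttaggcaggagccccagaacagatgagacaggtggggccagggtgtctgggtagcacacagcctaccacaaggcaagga
Rgs5 (chr1:169655251-169655550, plus strand): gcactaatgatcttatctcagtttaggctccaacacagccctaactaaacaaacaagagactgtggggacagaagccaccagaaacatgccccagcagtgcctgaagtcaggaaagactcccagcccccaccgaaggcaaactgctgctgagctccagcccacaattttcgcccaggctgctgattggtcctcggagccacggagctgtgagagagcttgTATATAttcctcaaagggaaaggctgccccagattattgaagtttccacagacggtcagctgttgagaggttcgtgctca
Acta2 (chr19:34255324-34255623, minus strand): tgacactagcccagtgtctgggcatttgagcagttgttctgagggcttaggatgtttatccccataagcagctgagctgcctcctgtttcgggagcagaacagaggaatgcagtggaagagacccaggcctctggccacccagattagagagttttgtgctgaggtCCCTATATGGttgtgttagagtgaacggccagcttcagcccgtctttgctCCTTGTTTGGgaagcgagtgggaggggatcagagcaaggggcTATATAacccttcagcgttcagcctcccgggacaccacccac
The windows of Postn, Rgs5 and Acta2 each held TATATA 1 time, and 5.67% of 32851 windows of this length held at least 1. In the Acta2 window it begins 8 bases after the annotated start, while in those of Postn and Rgs5 it begins 28 and 30 bases before it. The window of the upstream start of Postn, not printed, held it 0 times. The window of Acta2 held 2 near-matches of the CArG box, and 8.50% of all windows held at least 1. An exact CArG box, present in 1.63% of all windows, was in none of the 4 printed here. The Pdgfra window held TATATA, an exact CArG box and a near-match 0 times each. Serum response factor acting through such boxes is the textbook route by which smooth muscle genes such as Acta2 are transcribed. A match is only a run of letters in this window, and these arrays did not measure binding.

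Dcn and Lum encode decorin and lumican, small leucine-rich proteoglycans that bind collagen fibrils and set their diameter and spacing. Dcn had log2 ratios of 0.380 and 0.498 on the arrays with 152F7 in Cy5, against 0.381 and 0.442 on those with wild type in Cy5. All arrays were high and the orientations overlapped. Its mean was 0.43 ± 0.06 (SD, n = 4 arrays), 1.34-fold, and 18 genes of the 11791 ranked above it.
The second spot of Dcn, designed on a cDNA clone, had a value only on array 2 with wild type in Cy5. That value was 0.033, where the complete spot read 0.442. The mean of Dcn therefore rests on 1 spot, and the average of both spots, each over the arrays on which it had a value, would be 0.23.

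Lum had 0.241 and 0.177 with 152F7 in Cy5, against -0.152 and -0.059 with wild type in Cy5. The orientations did not overlap and lay on opposite sides of 0. The same split, with 152F7 in Cy5 above 0 and wild type in Cy5 below, held for 20.0% of all genes. Its mean was 0.05 ± 0.19, smaller than its SD, and without array 1 of 152F7 in Cy5 it was -0.011. Lum is the gene next to Dcn among protein-coding genes of the GRCm38.p6 table, followed by Kera and Epyc, which encode proteoglycans of the same family. Epyc had 0.03 ± 0.09, and Kera had no spot with values on all 4 arrays.

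Postn encodes periostin, a matricellular protein of periosteum, valves and other collagen-rich tissue that helps assemble the matrix. Its log2 ratios were 0.309 and 0.292 with 152F7 in Cy5, against 0.286 and 0.254 with wild type in Cy5. The 4 arrays lay close together, with a mean of 0.29 ± 0.02, 1.22-fold, at rank 47 from the highest. A second spot, designed on a cDNA clone, had a value only on array 1 with 152F7 in Cy5. It read -0.184 there, where the complete spot read 0.309, so the spots of Postn differed in direction. The average of both spots, each over the arrays on which it had a value, would be 0.051, under 1.1-fold.

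Sparc encodes a matricellular protein, also called osteonectin, that binds collagen and is made by mesenchyme, endothelium and pericytes. Its first spot had 0.201 and 0.282 with 152F7 in Cy5, against 0.266 and 0.148 with wild type in Cy5. Its second spot had 0.154 and 0.209 with 152F7 in Cy5, against 0.070 and 0.170 with wild type in Cy5. All 8 values were above 0 and the orientations overlapped. The mean of Sparc was 0.19 ± 0.04, 1.14-fold, and its spots had means of 0.22 and 0.15.

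Fn1 encodes fibronectin, a glycoprotein that links integrins on cells to the surrounding matrix. Its spots disagreed. One complete spot had 0.223 and 0.083 with 152F7 in Cy5, against 0.335 and 0.230 with wild type in Cy5, with a mean of 0.22 ± 0.10. The other complete spot had -0.306 and 0.110 with 152F7 in Cy5, against 0.075 and 0.028 with wild type in Cy5, with a mean of -0.02 ± 0.19. The low value stood on array 1 with 152F7 in Cy5 alone. An incomplete spot had 0.150 on array 2 with 152F7 in Cy5, against -0.137 on array 2 with wild type in Cy5. The gene mean was 0.10 ± 0.10, and without array 1 of 152F7 in Cy5 it was 0.14 and passed the 1.1-fold rule.

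**Figure D2:**
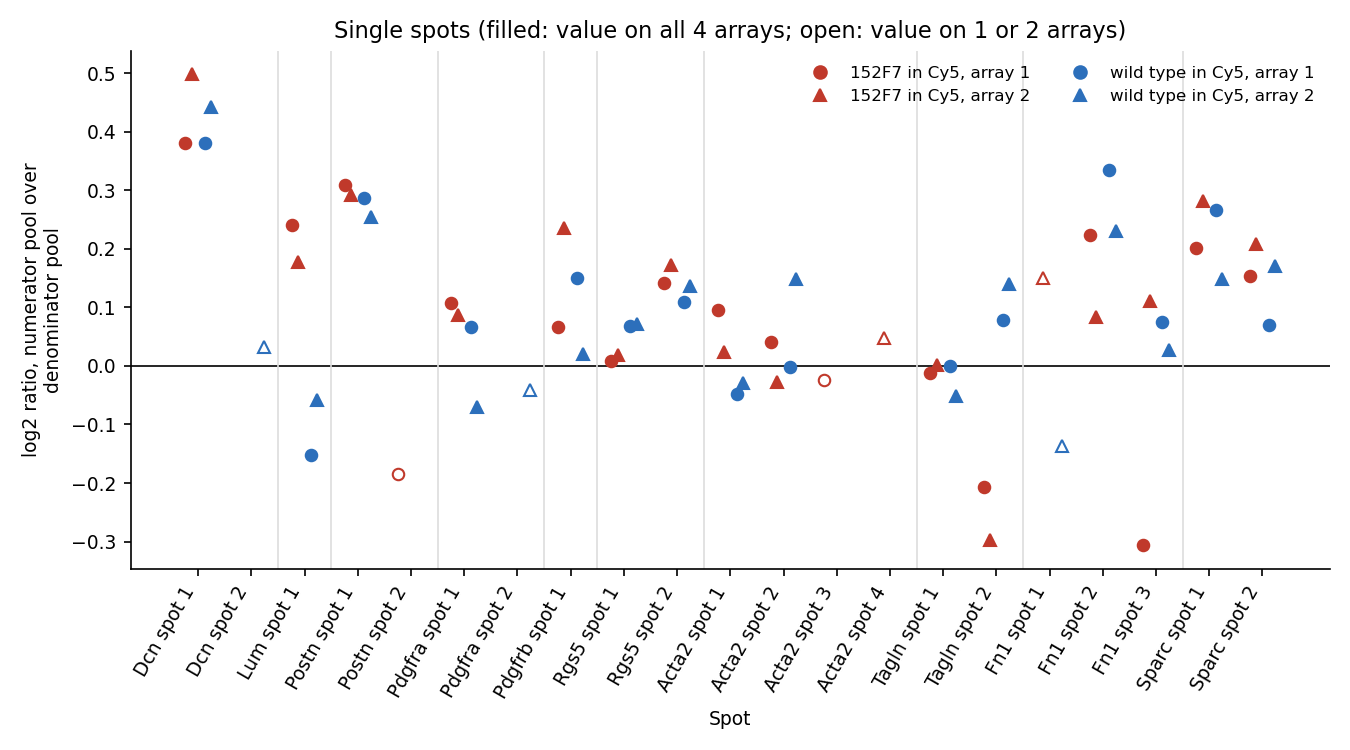
Log2 ratio (vertical axis) of every spot of the 10 genes that had a value (horizontal axis, spots grouped by gene), red for 152F7 in Cy5 and blue for wild type in Cy5. Filled points belong to spots with values on all 4 arrays and open points to spots with 1 or 2 values. The open points of Dcn at 0.033 and Postn at -0.184 lie below the filled points of the same gene, and the complete spots of Fn1 and of Tagln differ from each other.

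Pdgfra and Pdgfrb encode the 2 receptors for platelet-derived growth factors, of which the alpha receptor marks fibroblasts and the beta receptor marks pericytes. Pdgfrb had 0.066 and 0.235 with 152F7 in Cy5, against 0.150 and 0.021 with wild type in Cy5. Its arrays were all above 0 but differed within both orientations. The mean was 0.12 ± 0.09, 1.09-fold, and without array 2 of wild type in Cy5 it was 0.15 and passed the 1.1-fold rule. Pdgfra had 0.107 and 0.087 with 152F7 in Cy5, against 0.066 and -0.071 with wild type in Cy5. One array lay below 0, and the mean of 0.05 ± 0.08 was smaller than its SD. A second spot of Pdgfra read -0.042 on the same array, its only value. Of the ligand genes, Pdgfa had -0.01 ± 0.09, Pdgfb 0.03 ± 0.02 and Pdgfc 0.02 ± 0.03, and Pdgfd had no spot with values on all 4 arrays.

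Rgs5 encodes a regulator of G protein signalling that is among the most used markers of pericytes. Its spot on a cDNA clone had 0.009 and 0.019 with 152F7 in Cy5, against 0.068 and 0.072 with wild type in Cy5. Its spot on the RefSeq transcript had 0.142 and 0.173 with 152F7 in Cy5, against 0.109 and 0.136 with wild type in Cy5. All 8 values were above 0, and the second spot was the higher on every array. The gene mean was 0.09 ± 0.01, 1.07-fold, with the smallest SD of the 10 genes. The spots had means of 0.04 ± 0.03 and 0.14 ± 0.03, so the spread between spots exceeded the spread between arrays.

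Acta2 and Tagln encode smooth muscle actin and transgelin, contractile proteins of arterial smooth muscle and of some pericytes. The first complete spot of Acta2 had 0.095 and 0.023 with 152F7 in Cy5, against -0.048 and -0.030 with wild type in Cy5. The second complete spot had 0.041 and -0.028 with 152F7 in Cy5, against -0.002 and 0.149 with wild type in Cy5. Values lay on both sides of 0 and the mean was 0.02 ± 0.05. Of 5 spots for Acta2 on the platform, 2 more had a value on 1 array, -0.024 and 0.047, and 1 had none.

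The first spot of Tagln had -0.012 and 0.001 with 152F7 in Cy5, against 0.000 and -0.052 with wild type in Cy5. The second spot had -0.207 and -0.298 with 152F7 in Cy5, against 0.078 and 0.140 with wild type in Cy5. The first spot stayed near 0, and the second split by orientation. The gene mean was -0.04 ± 0.10, the only mean below 0 among the 10 genes, and smaller than its SD. The split with 152F7 in Cy5 below 0 and wild type in Cy5 above held for 10.8% of all genes.

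Ordered by mean, the genes ran Dcn, Postn, Sparc, Pdgfrb, Fn1, Rgs5, Lum, Pdgfra, Acta2 and Tagln. With spots averaged, the arrays of Dcn did not overlap those of Postn, and those of Postn did not overlap those of Sparc, although the first spot of Sparc alone did overlap Postn. From Sparc downwards each gene overlapped its neighbour in the order. These are differences between ratios of different probes, and probes may compress a ratio to different degrees. Dcn lay above 99.8% of all genes, Postn above 99.6%, Sparc above 98.4%, Pdgfrb above 94.3%, Fn1 above 91.4% and Rgs5 above 90.3%. Lum lay above 79.6%, Pdgfra above 77.6%, Acta2 above 65.9% and Tagln above 21.6%.

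**Figure D3:**
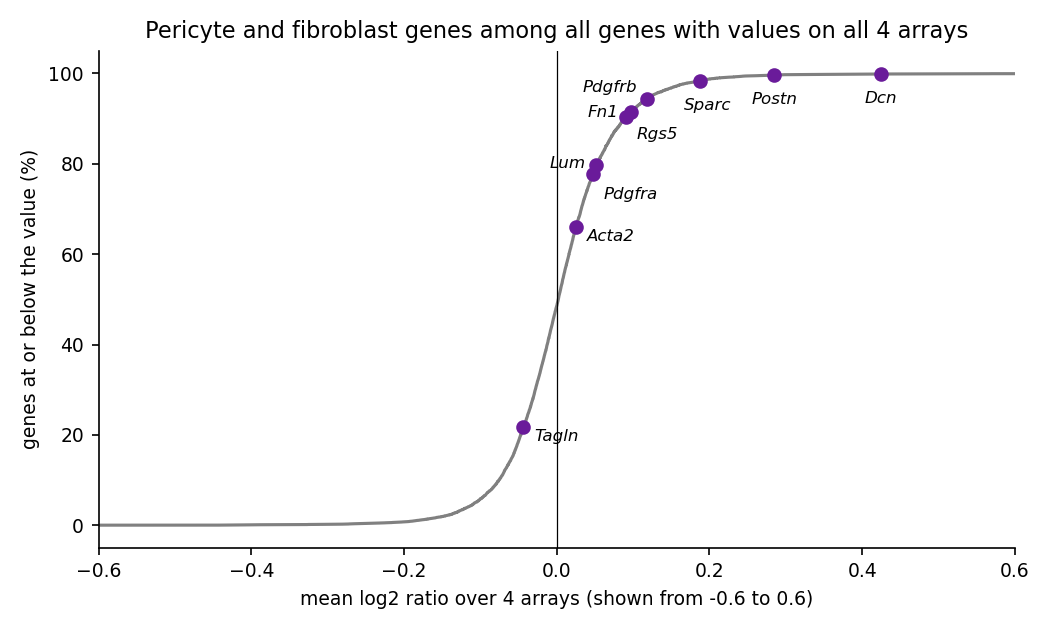
Cumulative share of all 11791 genes in percent (vertical axis) at or below each mean log2 ratio over 4 arrays (horizontal axis, cut at both ends). Purple points mark the 10 genes on the grey curve of all genes. The 3 genes highest on the axis are Sparc, Postn and Dcn, and Tagln at -0.04 lies alone to the left of 0.

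The reading in which values are Cy5 over Cy3 was kept as an alternative, in which the sign is changed wherever wild type was in Cy5 and the mean becomes 152F7 over wild type. In it Dcn had 0.014, Postn 0.015 and Sparc 0.024, none at 1.1-fold. Lum had 0.16 and was the 1 gene past the rule, against 4.49% of all genes. Tagln had -0.085, Fn1 -0.070, Pdgfra 0.050, Pdgfrb 0.032, Acta2 0.0078 and Rgs5 -0.0052. The genes with the highest means as deposited and the gene with the highest mean in this reading were therefore different ones.

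Genes that work with the 10 were counted by the same rule, in lists with none of the 10 in them. By this rule 3.42% of all genes were higher and 1.45% lower. Without 1 array the shares were 3.28% to 4.39% higher and 1.79% to 2.66% lower. They were 12.3% and 6.79% with 152F7 in Cy5 alone, and 6.29% and 8.07% with wild type in Cy5 alone. Of 14 further mural cell genes 3 were higher and 0 lower, with a median of 0.084. Without array 2 of wild type in Cy5 this median was 0.050 and 1 gene was lower, and without array 1 of wild type in Cy5 the higher count was 2. With 152F7 in Cy5 alone the median was 0.029, and with arrays turned -0.016. Vtn, which encodes vitronectin and is made by brain pericytes, had 0.207 and 0.320 with 152F7 in Cy5, against 0.187 and 0.207 with wild type in Cy5, with a mean of 0.23 ± 0.06. Notch3, a receptor needed for mural cell maturation, had a mean of 0.23 ± 0.18, and Heyl, a transcriptional effector of Notch, 0.20 ± 0.18. Their orientations differed, in opposite ways, and this was not tested. Notch3 had 0.380 and 0.393 with 152F7 in Cy5, against 0.052 and 0.089 with wild type in Cy5. Heyl had 0.056 and 0.046 with 152F7 in Cy5, against 0.397 and 0.304 with wild type in Cy5. Cspg4, which encodes the pericyte proteoglycan NG2, had -0.12 ± 0.19.

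Of 20 further genes of contractile proteins and serum response factor 2 were higher and 0 lower, with a median of 0.0010, and of 0.0015 to 0.020 with 1 array left out. Without array 2 of 152F7 in Cy5 1 was higher, and without array 1 of that orientation 1 was lower. The higher genes were Flna, which encodes the actin crosslinker filamin A, at 0.20 ± 0.03 and Tagln2, a relative of Tagln, at 0.15 ± 0.07. Myh11 and Myocd, which encode smooth muscle myosin and its transcriptional activator myocardin, had no spot with values on all 4 arrays. Cnn1, the smooth muscle calponin gene, had 0.05 ± 0.07.

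Of 20 further meningeal fibroblast genes 3 were higher and 1 lower, with a median of 0.044. The median was 0.027 without array 1 and 0.024 without array 2 of 152F7 in Cy5, with 2 and 3 genes lower. It was 0.066 without array 1 of wild type in Cy5, with 2 lower. With wild type in Cy5 alone it was -0.015, with 3 of the 20 lower, against 8.07% of all genes. Aldh1a2, the enzyme by which the meninges make retinoic acid, had 0.207 and 0.251 with 152F7 in Cy5, against 0.128 and 0.192 with wild type in Cy5, with a mean of 0.19 ± 0.05. Igf2, an imprinted growth factor gene expressed in meninges and choroid plexus, had 0.19 ± 0.09. Twist1, a transcription factor of cranial mesenchyme, was the lower one at -0.28 ± 0.20, with 1 spot and arrays between -0.548 and -0.065.

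Matrix genes related to the 10 were counted as well. Of 11 genes of the SPARC family and other matricellular proteins 2 were higher and 0 lower, with a median of 0.059. All 11 means were above 0, the lowest at 0.014, as were 6068 of the 11791 means of all genes. Above 0 on all 4 arrays were 5 of the 11, against 12.8% of all genes. The higher count was 1 without array 2 and 3 without array 1 of wild type in Cy5, and the median was -0.0092 with arrays turned. Sparcl1, also called hevin and the closest relative of Sparc, had a mean of 0.38 ± 0.03 over 2 spots, with 0.331 and 0.396 with 152F7 in Cy5, against 0.374 and 0.410 with wild type in Cy5. Ccn2, the connective tissue growth factor gene, had 0.16 ± 0.06. Of 14 genes of elastic fibres and fibronectin-associated matrix 3 were higher and 0 lower, with a median of 0.082, which was 0.046 without array 2 of 152F7 in Cy5, with 2 higher. With wild type in Cy5 alone it was 0.024, with 1 lower. The higher genes were Loxl1, a collagen and elastin crosslinking enzyme, at 0.21 ± 0.19, the fibrillin gene Fbn2 at 0.15 ± 0.03 and the fibulin family gene Efemp1 at 0.14 ± 0.10. Loxl1 had 0.365 and 0.369 with 152F7 in Cy5, against 0.075 and 0.015 with wild type in Cy5. Efemp1 had 0.175 and 0.269 with 152F7 in Cy5, against 0.040 and 0.086 with wild type in Cy5. Of 3 measured small leucine-rich proteoglycans besides Dcn and Lum 1 was higher, Prelp, at 0.21 ± 0.11. Prelp had 0.274 and 0.320 with 152F7 in Cy5, against 0.135 and 0.097 with wild type in Cy5. The median of the 3 was 0.028. With 152F7 in Cy5 alone it was 0.19, with 2 higher, and with wild type in Cy5 alone -0.026, with 0 higher and 1 lower. Bgn, Fmod, Kera, Omd and Aspn had no spot with values on all 4 arrays. Of 12 integrins and other matrix receptors 2 were higher and 0 lower, with a median of 0.0096. This median was -0.018 without array 1 of 152F7 in Cy5, and 0.017, 0.022 and 0.018 without array 2 of that orientation and arrays 1 and 2 of wild type in Cy5. The higher count was 1 without array 2 of 152F7 in Cy5. The higher genes were Itga11, a collagen-binding integrin subunit, at 0.25 ± 0.14, and Ddr1, a collagen receptor kinase, at 0.16 ± 0.06. Itga11 had 0.326 and 0.391 with 152F7 in Cy5, against 0.081 and 0.189 with wild type in Cy5.

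Markers of some other cell types were also higher in the numerator pool, and their part in the values of Dcn, Postn and Sparc was not tested. Of 14 lens genes 13 were higher and 0 lower, with a median of 0.50 and with medians of 0.541 and 0.610 on the arrays with 152F7 in Cy5, against 0.510 and 0.450 on those with wild type in Cy5. Crystallins led them, with Cryba1 at 1.21 ± 0.01, Crygf at 0.98 ± 0.07 and Cryaa at 0.95 ± 0.12. Of 7 red cell genes 5 were higher and 0 lower, with a median of 0.19 and array medians from 0.127 to 0.183. Hba-x, Hba-a1 and Alas2 led at 0.29 ± 0.26, 0.23 ± 0.10 and 0.20 ± 0.04. Hba-x had 0.510 and 0.528 with 152F7 in Cy5, against 0.106 and 0.030 with wild type in Cy5. Of 9 myeloid genes 3 were higher and 0 lower, S100a9 at 0.74 ± 0.08, Lyz2 at 0.57 ± 0.07 and S100a8 at 0.31 ± 0.08. Of the 9 means 3 lay below 0, down to -0.054, and their median was 0.030, below the array medians of 0.048 to 0.067. It was 0.014 without array 1 of 152F7 in Cy5 and 0.065 without array 2 of wild type in Cy5. Of 6 choroid plexus genes 3 were higher and 0 lower (median 0.107, array medians 0.046 to 0.170), Kcne2 at 0.34 ± 0.06, Ttr at 0.34 ± 0.12 and Clic6 at 0.15 ± 0.07. Without either array of 152F7 in Cy5 2 were higher. Ttr had 0.350 and 0.507 with 152F7 in Cy5, against 0.256 and 0.235 with wild type in Cy5.

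Of 11 endothelial genes, whose cells pericytes cover, 2 were higher and 0 lower, with a median of 0.035 and array medians from 0.044 to 0.085. The median was 0.057 without array 1 and 0.058 without array 2 of wild type in Cy5, and 3 were higher without array 1 of 152F7 in Cy5. The higher genes were Mfsd2a, which carries lipids across brain endothelium, at 0.26 ± 0.09 and Kdr, a receptor for VEGF, at 0.24 ± 0.04. Mfsd2a had 0.165 and 0.215 with 152F7 in Cy5, against 0.307 and 0.364 with wild type in Cy5. Of 4 cartilage and bone genes 1 was higher, Alpl at 0.16 ± 0.06, and 5 more on the platform had no spot with values on all arrays. Of 3 skeletal muscle genes and of 8 surface ectoderm genes 0 passed in either direction, with medians of 0.12 and -0.020, and 7 more skeletal muscle genes had no such spot. The skeletal muscle median was 0.070 without array 1 of 152F7 in Cy5, and 2 and 1 genes were higher without array 1 and array 2 of wild type in Cy5. The surface ectoderm median was 0.010 without array 2 of 152F7 in Cy5 and -0.039 without array 1 of either orientation, with 1 gene lower in both of the last cases. Of 15 genes of telencephalic progenitors and neurons 1 was higher and 0 lower, with a median of 0.039, which was 0.016 without array 1 of 152F7 in Cy5. That gene was Lhx2, a transcription factor of the cortical primordium, at 0.28 ± 0.12.

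**Figure D4:**
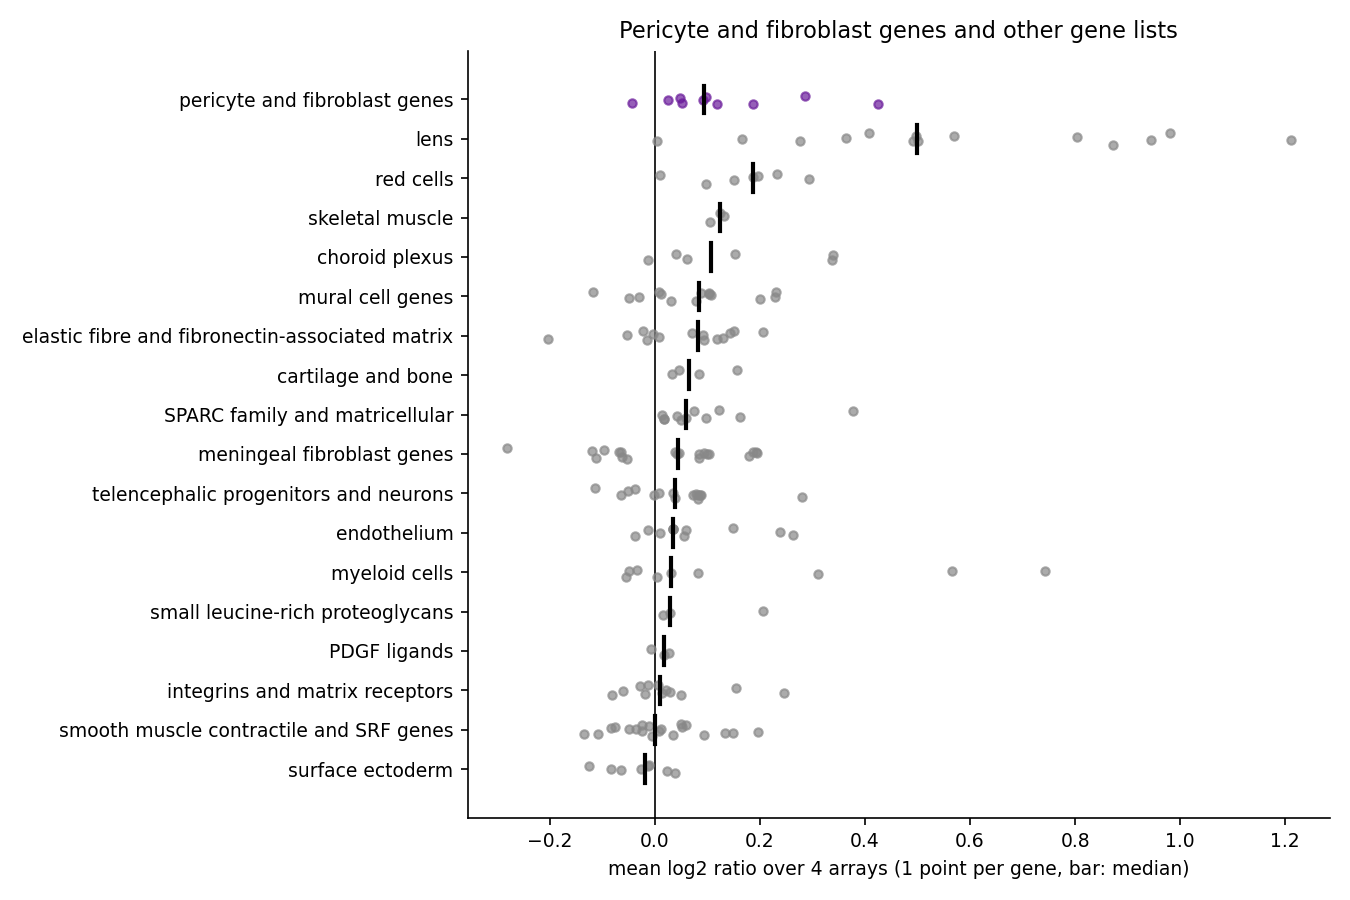
Mean log2 ratio over 4 arrays (horizontal axis) of each gene (1 point) in the 10 pericyte and fibroblast genes (purple, top) and in 17 other lists (grey, ordered by median). Black bars are medians, and the vertical scatter within a line only separates the points. Lens genes reach furthest to the right with a median of 0.50, and the contractile genes centre on 0.

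The genes most like Dcn were sought by the root mean square distance over the 4 arrays, among 11781 genes outside the 10. The nearest were Prap1, Crybb1, Sparcl1, Slc38a5 and Hsd3b2, at distances of 0.034 to 0.073. The nearest to Postn were Ubr4, Capn3, Synm, Pmel and Dct, at 0.024 to 0.053. All arrays compare the same 2 pools, so a short distance says only that the ratios are of like size on each array.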

How the data were processed

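Per the labels' protocols, Trizol was used to extract total RNA, of which 1 ug per labelling was linearly amplified with Cy3 or Cy5. The deposited table holds 1 log ratio per spot and array, read here as log2; its largest size is 5.76 and the array medians lie between -0.007 and 0.007. The sources used here do not give the scanner software, the filter, the normalization, the background correction, the log base or the direction. Spots were named through the platform annotation (32042 of 44290 with 1 symbol, 47 with several, 12201 with none), and all 10 members matched the GRCm38.p6 table through their Entrez identifiers. Spots with 1 symbol and values on all 4 arrays were kept (17767). Per gene, the 4-array means of its spots were averaged. Higher or lower means at least 1.1-fold (0.14 on the log2 scale) with that sign on all 4 arrays, and 1.2-fold and 1.5-fold were alternatives. Arrays of the same 2 pools are technical, so no test was run. Genes named from other lists are the 3 with the largest size of mean, of either sign, among those past the rule. Other genes in them are named for their role. The 5 nearest genes are given for Dcn and Postn. The members and lists were chosen with earlier results of these data known. Analyses used Python 3.11.15, pandas 2.3.3 and numpy 2.4.6.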

Additional observations from a re-analysis of the deposited data

Results flagged for a closer look

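For Lum, Tagln, Twist2, Pdgfa and the list of integrins and matrix receptors, both arrays of 1 dye orientation lay on one side of 0 and both arrays of the other orientation on the opposite side. The mean log2 ratio with 152F7 in Cy5 minus that with wild type in Cy5 was 0.31 for Lum, -0.17 for Tagln, 0.25 for Twist2 and 0.12 for Pdgfa. For the integrin and matrix receptor list the same difference between the mean array medians was 0.080. The medians of all genes lay on the same sides of 0, at 0.022 and 0.015 with 152F7 in Cy5, against -0.012 and -0.010 with wild type in Cy5. These differences were not tested. Such a split held for 20.0% of all genes with 152F7 in Cy5 above 0, and for 10.8% with 152F7 in Cy5 below 0.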

How the results depend on the processing

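No paired analysis was possible because no result comes from a test. The count of lower members was 0 under every alternative run. The median of the members (0.094) and the count of higher members (3) were 0.0145 and 1 with the arrays of wild type in Cy5 turned, and 0.12 and 5 with 152F7 in Cy5 alone. Of all genes 4.49% were higher with those arrays turned and 12.3% with 152F7 in Cy5 alone. The median of all genes was 0.0145 with those arrays turned, like that of the members, and 0.018 with 152F7 in Cy5 alone. The median of the members was 0.136 with values read as natural logs and 0.0495 with the spot nearest to 0. It was 0.059 with all spots that had any value, a setting chosen after seeing the data. The count was 0 at 1.5-fold. Leaving out 1 array at a time gave medians of 0.084 to 0.116 and counts of 3 to 4. Over all genes the counts of 403 higher and 171 lower became 1445 and 801 with 152F7 in Cy5 alone, 742 and 951 with wild type in Cy5 alone, 763 and 445 with natural logs, 57 and 28 at 1.2-fold, and 9 and 1 at 1.5-fold. The lower count was 282 with arrays turned, 285 without the demand on signs, 412 with any value, 266 without array 2 of 152F7 in Cy5 and 314 without array 2 of wild type in Cy5. The cause was not tested. With arrays turned, these genes past the 1.1-fold rule changed sign: Sparcl1 (-0.0145), Ccn2 (-0.044), Fbn2 (-0.0068), Heyl (-0.15), Igf2 (-0.056), Mfsd2a (-0.073), Kdr (-0.030), Hba-a1 (-0.043), Alas2 (-0.012), Cryba1 (-0.0018), Crygf (-0.028), S100a9 (-0.013), Alpl (-0.038) and Lhx2 (-0.054). Array number and unknown signal over background limit the precision.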

Other observations

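The transcription factors of the mural and meningeal lists were looked at after their values had been seen, so their values are a description. Of these 9 genes, 6 had a mean below 0 and 3 above, and their median was -0.063. Among all 11791 genes 5720 had a mean below 0 and 6068 above, with a median of 0.0021. Twist1 was lower by the 1.1-fold rule and Heyl higher. Zic1, a factor of the meninges and the dorsal midline, had -0.043 and -0.113 with 152F7 in Cy5, against -0.197 and -0.125 with wild type in Cy5. Its mean was -0.12 ± 0.06, below 0 on all 4 arrays. Prrx1, a factor of cranial and limb mesenchyme, had -0.06 ± 0.04 over 3 spots and was also below 0 on all 4 arrays. With arrays turned Zic1 had 0.042 and Prrx1 0.0031. Foxd1, a factor of pericyte progenitors in the kidney and other organs, had -0.05 ± 0.01. Tbx18, a marker of adult mural cells, had 0.08 ± 0.05 with all 4 arrays above 0. Foxc1, needed for the meninges to form, had 0.01 ± 0.12, and its relative Foxc2 had -0.10 ± 0.28, with -0.464 on array 1 with 152F7 in Cy5, against 0.227 on array 2 of the same orientation. Below 0 on all 4 arrays were Foxd1, Twist1, Prrx1 and Zic1 among these factors, and 9.86% of all genes.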
